A study of Homo sapiens with 5 samples.

Results

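The genes described here are 10 genes linked to secreted defence at the airway surface: LCN2, PDZK1IP1, SLPI, PI3, WFDC2, S100A8, S100A9, PIGR, SAA1 and SAA2. They were selected on their summed counts in these same 5 libraries along the mixing series, so their levels and differences between the cell lines are given as a description, without a test. All transcripts that GENCODE v44 assigns to each gene were summed. The 10 are among 61220 genes with a listed transcript, and 8 of them had at least 10 reads in at least 2 libraries. PI3 and S100A8 did not.

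NCI-H1975 and HCC827 are established human lung adenocarcinoma lines, both known for mutated EGFR. Each was grown without treatment to near confluence, and messenger RNA of 1 preparation per line, labelled as carrying synthetic sequin spike-ins, was mixed by mass. The 100:0 library holds NCI-H1975 RNA alone and the 0:100 library HCC827 RNA alone. The libraries called 75:25, 50:50 and 25:75 lie between, with the NCI-H1975 part first. Each is 1 library of long-read nanopore cDNA amplified by PCR. Scatter about a trend therefore measures libraries of the same RNA, not separate cultures.

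Airway epithelium secretes proteins that starve, bind or lyse microbes, together with inhibitors that shield tissue from the proteases of arriving neutrophils. Lipocalin 2, the product of LCN2, withholds iron by binding bacterial siderophores, and it is a classical target of NF-kappaB and its cofactor NFKBIZ. The serum amyloid A genes are acute-phase genes driven by the same pathway and by C/EBP and STAT3. PIGR carries polymeric antibodies across the epithelium, and SLPI and PI3 are small protease inhibitors built on the WAP domain, which WFDC2 shares.

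The libraries held 2932250 to 4058751 assigned reads, without order along the series. Sequin reads numbered 5475, 4678, 2830, 1269 and 0 from the 100:0 to the 0:100 library. They fell with the NCI-H1975 share over the whole series, although the labels name a sequin mix for each line. The reason was not tested. Results below are also given without the 0:100 library where its removal changed a call. Epithelial markers were read in every library. KRT18 had 3121 to 11416 reads, and all 7 epithelial markers examined (EPCAM, KRT8, KRT18, KRT19, KRT7, CDH1 and NKX2-1) were read in each. They were not level along the series: 6 of the 7 rose with HCC827 (edgeR, adjusted p below 0.05), and their sum went from 5699 CPM at 100:0 to 16140 CPM at 0:100, in the direction of LCN2 and the other rising members. The part of this rise in the members' values was not tested. Lipocalin and the calprotectin genes S100A8 and S100A9 are also neutrophil products. Of 8 neutrophil and blood cell markers, 5 (PTPRC, FCGR3B, MPO, ELANE and HBB) had 0 reads in every library, CSF3R and ITGAM had at most 1 read in any, and CD68, which epithelial lines also express, had 192 to 302. Summed, the 8 markers ran from 57.7 CPM in the 100:0 library to 95.8 CPM in the 0:100 library. Levels are given as CPM, the read count relative to all gene reads after TMM scaling, which removes the shift shared by most genes.

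The 10 genes together took 0.00930% of gene reads in the 100:0 library (95% Wilson interval 0.00825 to 0.0105) and 0.168% in the 0:100 library (0.163 to 0.172). Between them the share was 0.0560% at 75:25, 0.0887% at 50:50 and 0.128% at 25:75. LCN2 made up 74.9% of these reads at 0:100 but 1.87% at 100:0, where SLPI and S100A9 had most. The genes split by direction. Of the 8 with more than 3 reads in a pure library, LCN2, PDZK1IP1, SAA1, SAA2 and PIGR were at least 4-fold higher in HCC827, against 4.97% of all genes compared. S100A9 was at least 4-fold lower, against 5.98% of all genes, and SLPI and WFDC2 differed by less. Raising the floor under low counts from 3 reads to 10 left 3 of the 5 at least 4-fold higher, since SAA2 and PIGR rest on few reads.

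In the trend test over all 13492 genes, which used the same contrast, 5 of the 8 were called rising and 2 falling (edgeR quasi-likelihood, Benjamini-Hochberg adjusted p below 0.05). Among all genes 23.5% rose and 22.3% fell, or 45.7% in either direction, and nothing is read from the members' count. When libraries were scaled by their totals, 26.0% of all calls rose, against 51.3% under TMM, and the median slope of all genes moved from -0.035 to -0.45. Among the 10 genes, 5 were again called rising and 2 falling in that scaling. DESeq2's Wald test left 3 rising, without LCN2 and PIGR.

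**Figure D1:**
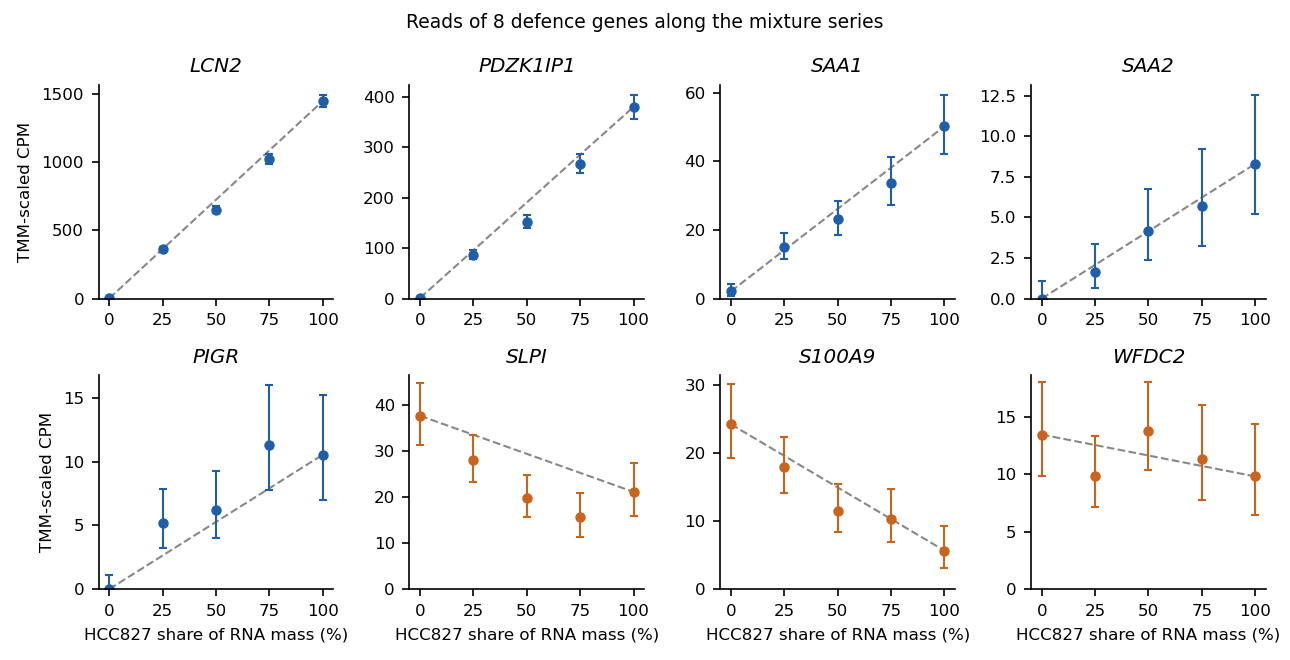
TMM-scaled CPM (vertical axes, linear and separately scaled) of the 8 genes with enough reads, against the HCC827 share of RNA mass. Points are single libraries, bars are exact 95% Poisson intervals for counting error, blue marks genes higher in HCC827 and orange genes lower, and the dashed line joins the pure libraries. LCN2 climbs from 1.49 to 1447 CPM, while SLPI at 50:50 and 25:75 lies below both pure libraries.

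The siderophore-binding lipocalin came first. LCN2 (ENSG00000148346.12, GRCh38 chromosome 9, 128149071 to 128153453, plus strand) had 5, 1530, 2503, 2873 and 3835 reads from the 100:0 to the 0:100 library. On the scaled level this was 1.49, 360, 652, 1019 and 1447 CPM. Every step rose, and the 100:0 library stood far below the other 4. The pure libraries differed 968-fold (95% interval for counting error 414.5 to 2983). By number of reads LCN2 was the 121st gene of the 0:100 library and the 14119th of the 100:0 library. The interval covers counting only, since PCR copies could not be told from separate molecules.

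PDZK1IP1 (ENSG00000162366.8, chromosome 1, 47183582 to 47191044, minus strand) encodes a small membrane protein, also called MAP17, that binds PDZ domains and is raised in many carcinomas. It is no secreted protein, and like LCN2 it was almost unread in the 100:0 library. The series mixes 1 RNA preparation per line. Genes read almost only in HCC827 therefore rise alike in it, whether or not they are linked. PDZK1IP1 had 4, 371, 583, 753 and 1007 reads, or 1.20, 87.2, 152, 267 and 380 CPM. The order was again unbroken, and the pure libraries differed 318-fold (124 to 1168).

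The promoters of these 2 genes are shown because they had the 2 greatest rises of the 10 and because NF-kappaB is the known inducer of LCN2. RefSeq windows (GRCh38.p14) were available for 6 of the 10 genes, in 8 entries. In the 250 bases before each start, 4 motifs were searched on both strands: a kappaB form (GGGA, any 4 bases, CC), a C/EBP form (TTGCNNAA), an AP-1 form (TGANTCA) and an ETS form (AGGAAG). Capitals mark the matches. The LCN2 window is chr9:128149265-128149440, plus strand, from base 188 to base 13 before the start, outside all annotated exons. The PDZK1IP1 window is chr1:47190037-47190286, minus strand, the 250 bases before the start.
LCN2: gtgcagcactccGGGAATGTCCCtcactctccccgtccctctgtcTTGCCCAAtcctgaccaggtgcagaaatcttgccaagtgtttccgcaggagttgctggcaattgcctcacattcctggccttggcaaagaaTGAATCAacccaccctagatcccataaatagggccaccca
PDZK1IP1: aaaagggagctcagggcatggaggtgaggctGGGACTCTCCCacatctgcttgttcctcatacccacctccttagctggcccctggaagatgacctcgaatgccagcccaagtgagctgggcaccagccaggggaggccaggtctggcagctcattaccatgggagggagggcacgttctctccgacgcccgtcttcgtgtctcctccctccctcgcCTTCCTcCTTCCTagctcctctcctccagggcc

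The LCN2 window holds a kappaB match beginning 176 bases before the start, a C/EBP match at 143 and an AP-1 match at 52. In PDZK1IP1 a kappaB match begins at 219, and 2 ETS matches begin at 33 and 26. There the strand opposite to the printed one carries the ETS motif. Both kappaB stretches match on either strand, offset by 1 base, and the AP-1 letters read the same on both strands. An ETS match of LCN2 begins at 224, outside the printed window. Of the 6 genes, 2 had the kappaB form, 1 the C/EBP form, 1 the AP-1 form and 5 the ETS form. Of 35116 promoters of the same length, 22.6% had the kappaB form, 9.05% the C/EBP form, 6.57% the AP-1 form and 28.7% the ETS form. A match describes letters, not binding. S100A9, which ran the other way, had only ETS matches, as had PIGR.

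Both acute-phase genes were higher in HCC827. SAA1 (ENSG00000173432.13, chromosome 11, 18266260 to 18269977, plus strand) had 7, 64, 89, 95 and 133 reads, which was 2.09, 15.0, 23.2, 33.7 and 50.2 CPM. It was 24.0-fold higher in the 0:100 than in the 100:0 library (11.3 to 60.8). SAA2 (ENSG00000134339.9, 18239223 to 18248668, minus strand) had 0, 7, 16, 16 and 22 reads. With the 100:0 library set to the 3 reads that a count of 0 allows, the 0:100 library exceeded that floor by 9.25-fold, and counting error of both libraries allowed a ratio down to 6.91-fold. Levels of both genes rose at every step. SAA4, the constitutive member of the cluster, had 9 reads in all, and the readthrough gene SAA2-SAA4 had 0.

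SAA1 and SAA2 are near copies, and how their reads were split is uncertain. Their coding sequences differ at 11 of 366 bases (97.0% identity, GENCODE v44). Most of the differences lie in the stretch from coding base 175 to 324, printed here because it is what can tell the 2 transcripts apart, with the 10 differing bases in capitals.
SAA1-201: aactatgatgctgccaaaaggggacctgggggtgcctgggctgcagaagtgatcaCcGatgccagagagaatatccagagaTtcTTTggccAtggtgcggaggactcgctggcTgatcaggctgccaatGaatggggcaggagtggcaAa
SAA2-201: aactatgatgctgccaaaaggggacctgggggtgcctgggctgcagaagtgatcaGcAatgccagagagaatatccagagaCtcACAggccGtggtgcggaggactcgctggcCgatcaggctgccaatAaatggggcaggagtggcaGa

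PIGR (ENSG00000162896.6, chromosome 1, 206928522 to 206946466, minus strand), the carrier of polymeric antibody, had 0, 22, 24, 32 and 28 reads. That was 0, 5.17, 6.25, 11.4 and 10.6 CPM, which put the 0:100 library 11.8-fold above the 3-read limit of the 100:0 library. Counting error of both libraries allowed a ratio down to 8.96-fold. All reads fell on the single transcript PIGR-201. The 25:75 and 0:100 libraries did not differ beyond counting error. Its trend call was lost without the 25:75 library and under DESeq2's Wald test.

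Among the genes with a WAP domain, SLPI was lower in HCC827, WFDC2 was not called and PI3 was almost unread. SLPI (ENSG00000124107.5, chromosome 20, 45252239 to 45254564, minus strand), an inhibitor of neutrophil elastase, had 126, 119, 76, 44 and 56 reads. Its level was 37.7, 28.0, 19.8, 15.6 and 21.1 CPM, so the lowest library was 25:75 and not the pure HCC827 library. The 100:0 library was 1.78-fold higher than the 0:100 library (1.29 to 2.49), and the trend call was lost without the 100:0 library. WFDC2 (ENSG00000101443.18, 45469753 to 45481532, plus strand), whose product is the serum marker HE4, had 45, 42, 53, 32 and 26 reads. Its 13.5, 9.87, 13.8, 11.4 and 9.81 CPM showed no order, and the ratio of 1.37 in favour of NCI-H1975 had an interval from 0.828 to 2.31. PI3 (ENSG00000124102.5, 45174902 to 45176544, plus strand), which encodes elafin, had 2 reads at 75:25 and none elsewhere. At these depths 3 reads correspond to 0.705 to 1.13 CPM, so PI3 was not detectable above that level in either pure library.

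Calprotectin, the zinc and manganese binding pair of S100A8 and S100A9, was read mainly from S100A9. S100A9 (ENSG00000163220.11, chromosome 1, 153357854 to 153361023, plus strand) had 81, 76, 44, 29 and 15 reads. Its level fell at every step, through 24.2, 17.9, 11.5, 10.3 and 5.66 CPM, and was 4.28-fold higher in the 100:0 than in the 0:100 library (2.45 to 7.99). S100A8 (ENSG00000143546.10, 153390032 to 153391073, minus strand) had 0 reads in both pure libraries, 3 at 75:25, 2 at 50:50 and 0 at 25:75. Its inner reads lie at the 3-read limit. Of 5 fibroblast markers, COL1A1 and COL1A2 fell like S100A9 and SLPI, from 532 to 19 reads and from 96 to 0. The others did not move with them: LUM had at most 3 reads in any library, COL3A1 had 1 read at 25:75 alone, and DCN was at 0 throughout. The 5 markers summed fell from 188 to 7.55 CPM. Their part in the fall of S100A9 and SLPI was not tested. None of the 10 genes overlapped another gene that had a read. Bulk RNA cannot tell apart a transcript made by all cells of a line and one made by a part of them.

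The mixed libraries show where each gene lies between the pure ones. A gene's position is its CPM above the 100:0 library as a percent of the difference between the pure libraries. LCN2 lay at 24.8% (exact 95% Poisson interval of the mixed library's count 23.6 to 26.1) at 75:25, 45.0% (43.2 to 46.8) at 50:50 and 70.4% (67.8 to 73.0) at 25:75. PDZK1IP1 lay at 22.7% (20.4 to 25.2), 39.8% (36.6 to 43.2) and 70.2% (65.2 to 75.4). At 50:50 both lay below the RNA mass share by more than the counting error of that library, but under scaling by library totals LCN2 lay at 52.1% and PDZK1IP1 at 46.0%. For comparison, the 76 genes at least 4-fold higher in HCC827 with at least 1000 reads, both of these included, had median positions of 27.9%, 47.0% and 73.7%. PDZK1IP1 exceeded 3.95% of those genes at 50:50 and LCN2 28.9%. SAA1 lay at 26.9%, 43.9% and 65.7%, and the intervals of SAA2 and S100A9 were wide. PIGR lay at 49.0% (30.7 to 74.1) at 75:25, 59.2% (37.9 to 88.0) at 50:50 and 107% (73.5 to 152) at 25:75. At 75:25 the interval lay above the mass share and the median of those 76 genes. It leaves out the counting error of the pure libraries, which had 0 and 28 reads of PIGR, so a departure is not shown.

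**Figure D2:**
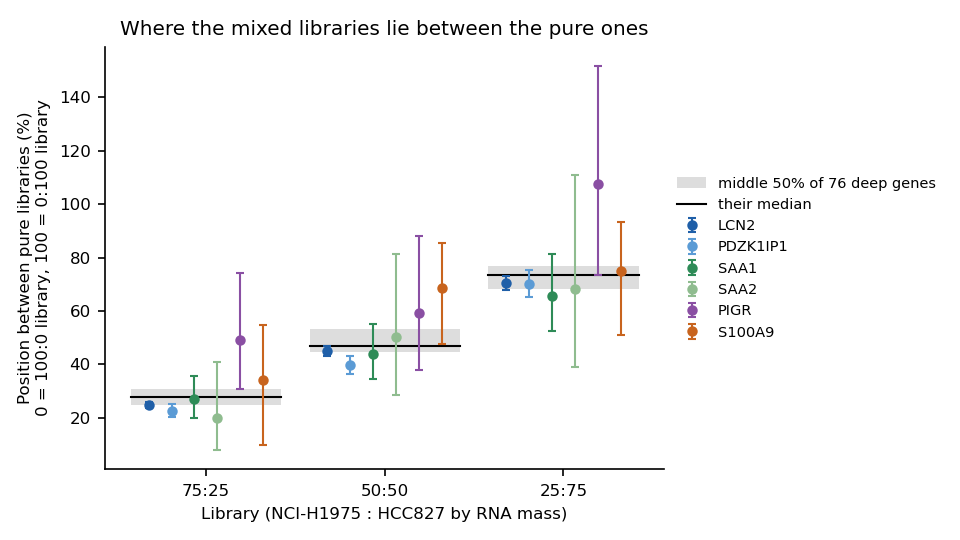
Position of the 3 mixed libraries between the pure libraries, in percent, for the 6 genes at least 4-fold apart. Bars are exact 95% Poisson intervals of the mixed library's count, the grey band spans the middle 50% of 76 genes at least 4-fold higher in HCC827 with at least 1000 reads, and the black line is their median. LCN2 and PDZK1IP1 have narrow bars and lie under the line in each library, and the bars of SAA2, PIGR and S100A9 are wide.

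The share of each transcript within its gene does not use the gene totals by which the list was chosen, and it was tested along the series. Of 7455 genes tested, 0.402% changed isoform usage (edgeR diffSpliceDGE, adjusted p-value under 0.05). Among the 10 genes, LCN2, PDZK1IP1, SAA1 and WFDC2 had enough transcripts for the test, and 0 of the 4 passed. LCN2, PDZK1IP1 and SAA1 had 5, 4 and 7 reads in the 100:0 library, so their reads in the other libraries come almost wholly from HCC827, and the test says nothing on a difference in usage between the lines for them. Unadjusted p-values were 0.804, 0.706, 0.564 and 0.0929 in that order (edgeR diffSpliceDGE), each with an adjusted p of 1.00, so 0 of the 4 were under 0.05 before adjustment too. The gene-level F test of edgeR also called 0 of the 4, and WFDC2 alone was under 0.05 before adjustment (adjusted p = 0.624).

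Reads of LCN2 were divided among few of its 7 listed transcripts. LCN2-201, annotated as protein coding, took 44.6%, 47.9%, 50.7% and 50.1% from the 75:25 to the 0:100 library. LCN2-204, annotated without a coding sequence, took 41.5%, 40.4%, 40.1% and 39.9%, and LCN2-207, likewise without one, 12.2%, 10.5%, 7.94% and 8.68%. The 100:0 library had too few LCN2 reads for a share. The Wilson intervals of LCN2-201 at 75:25 (42.2 to 47.1) and at 0:100 (48.6 to 51.7) did not overlap, nor did those of LCN2-207 at 75:25 (10.7 to 14.0) and at 25:75 (7.003 to 8.98). These intervals cover counting error only. Without the 100:0 library, the usage test of LCN2 had an unadjusted p of 0.0212 and an adjusted p of 1.00 (edgeR diffSpliceDGE). Over the other fits that each left out 1 library, its adjusted p stayed from 0.9999 to 1.00.

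LCN2-201 and LCN2-204 differ in their second exon, which is printed because it is what tells them apart beside a slightly different start. In LCN2-201 it is the coding exon chr9:128150238-128150374, and in LCN2-204 it is the adjoining stretch chr9:128150375-128150556, both on the plus strand (GENCODE v44). Capitals mark the GT with which the following intron of LCN2-201 begins.
LCN2-201 exon 2: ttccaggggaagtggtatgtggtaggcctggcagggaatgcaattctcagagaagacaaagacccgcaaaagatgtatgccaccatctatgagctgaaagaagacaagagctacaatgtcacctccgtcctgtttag
LCN2-204 exon 2: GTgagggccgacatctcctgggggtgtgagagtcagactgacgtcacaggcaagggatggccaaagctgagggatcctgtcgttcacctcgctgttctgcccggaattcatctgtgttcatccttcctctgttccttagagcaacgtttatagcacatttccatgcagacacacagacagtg

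How reads shared by both were divided is not given in the sources used here, so the level of LCN2-204 is uncertain. PDZK1IP1 had a like pair. PDZK1IP1-201, its coding transcript, took 72.5%, 73.1%, 68.4% and 69.6% from the 75:25 to the 0:100 library, and PDZK1IP1-203 took 25.3%, 24.5%, 28.4% and 27.3%. Intervals overlapped between all 4 libraries for both. PDZK1IP1-203 lacks the coding exon chr1:47187319-47187427 (minus strand), shown as the part that separates the pair.
PDZK1IP1-201 exon 2: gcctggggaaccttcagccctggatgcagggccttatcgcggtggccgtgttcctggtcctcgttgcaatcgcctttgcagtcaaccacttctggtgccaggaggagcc

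SAA1 reads spread over 3 coding transcripts, SAA1-202, SAA1-201 and SAA1-203, with 43.0%, 34.3% and 21.1% of all its reads. WFDC2 was divided among 5 transcripts with more than 10 reads, led by WFDC2-204 with 51 reads in all and annotated as protein coding. WFDC2-204 took 15.6% of 45 reads in the 100:0 library and 34.6% of 26 in the 0:100 library, and the intervals (7.75 to 28.8 and 19.4 to 53.8) overlapped. At 25:75 it took 50.0% of 32 reads (33.6 to 66.4), an interval that did not overlap that of the 100:0 library. All reads of SLPI and of S100A9 fell on 1 transcript each.

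**Figure D3:**
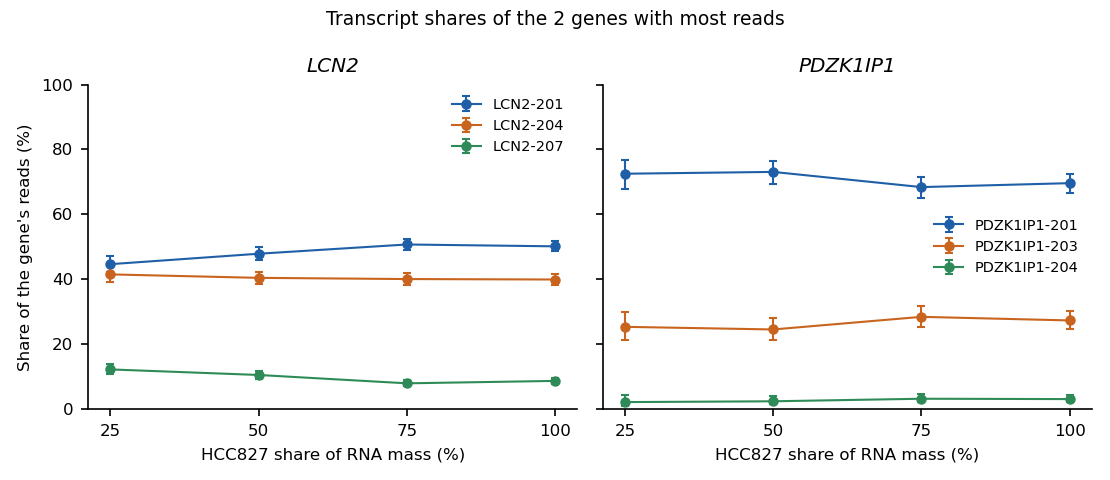
Share of reads (vertical axis, percent) of the 3 leading transcripts of LCN2 and of PDZK1IP1 in the 4 libraries that contain HCC827 RNA, with 95% Wilson intervals. LCN2-201 lies at 44.6% to 50.7% and LCN2-204 at 39.9% to 41.5%, and the shares of PDZK1IP1 transcripts overlap between libraries.

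Related genes outside the 10 were tested from lists of the same pathway, with all genes as background (23.5% rose, 22.3% fell). These lists were chosen with earlier results of these data known, so calls within them are a description and not independent support. Among 23 other airway defence secretions, 11 had 0 reads in every library, among them the lung secretoglobins SCGB1A1 and SCGB3A2, lactoferrin (LTF) and lysozyme (LYZ), which are named after their values were seen. Of the 6 that could be tested, 2 rose, 1 fell and 3 did not pass. DEFB4A, the inducible beta-defensin 2, had 1, 47, 99, 106 and 144 reads and a slope of 3.74 ± 0.54 (SE, log2 from 0 to 100% HCC827, edgeR quasi-likelihood test, adjusted p = 1.29e-04). Its ratio between the pure libraries rests on 1 read and was 182 (interval 32.1 to 7228). DEFB4B, a copy with 99.5% identical coding sequence, had 0, 35, 62, 51 and 63 reads, so the division between both is uncertain. S100P rose from 4.48 to 64.9 CPM at every step, with a slope of 2.69 ± 0.41 (edgeR, adjusted p = 1.97e-04). TCN1, which binds vitamin B12, fell at every step from 47.8 to 3.40 CPM, with a slope of -2.82 ± 0.37 (edgeR, adjusted p = 6.48e-05). LGALS3BP had 346 CPM in the 100:0 and 376 CPM in the 0:100 library and did not pass (slope 0.13 ± 0.13, edgeR, adjusted p = 0.458), although it passed without the 100:0 library.

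A list drawn up around the WFDC family, without the members described above, had 19 genes. It is wider than the family, since it includes SEMG1, SEMG2, SPINT3 and SPINT4, which had 0 reads in every library. Of the 19 genes in the list, 13 had 0 reads, those named included. Of the 2 tested, 0 passed in edgeR and 0 under DESeq2's Wald test, and 1, ANOS1, was under 0.05 before adjustment. WFDC3 had 24.5 CPM at 100:0 and 17.4 CPM at 0:100 and passed, as falling, when libraries were scaled by totals. ANOS1 had 3 and 13 reads in the pure libraries, a ratio of 5.47 (1.503 to 29.9), with a slope of 1.65 ± 0.72 (edgeR, adjusted p = 0.0770). Among 12 receptors and partners, 4 could be tested and 2 fell. MMP9, the gelatinase that lipocalin 2 binds and protects, went down from 26.0 to 5.28 CPM (slope -1.62 ± 0.37, edgeR, adjusted p = 0.00344), a call lost without the 0:100 library (adjusted p = 0.0656). BSG, a receptor for S100A9, fell from 660 to 421 CPM (slope -0.68 ± 0.11, edgeR, adjusted p = 3.99e-04). SCARB1, a receptor of serum amyloid A, had a slope of 0.19 ± 0.15 (edgeR, adjusted p = 0.324). The lipocalin receptors SLC22A17 and LRP2, also named after their values were seen, had at most 5 reads and 1 read in any library. Of the neutrophil proteases that SLPI and elafin inhibit, ELANE and CTSG had 0 reads and PRTN3 had 2 in all.

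Regulators of the NF-kappaB, IL-17 and IL-6 routes were read for all 23 genes, and 22 could be tested. Of these 5 rose, 2 fell and 15 did not pass, and their median slope was 0.24 beside -0.035 for all genes. When libraries were scaled by totals, 4 rose and 5 fell, with a median of -0.17. NFKBIA, the feedback inhibitor of NF-kappaB, rose at every step through 92.4, 144, 157, 181 and 223 CPM, with a slope of 1.12 ± 0.15 (edgeR quasi-likelihood test, adjusted p = 6.61e-05). The other 4 that rose are named after their values were seen. NFKBIZ, the cofactor needed for LCN2 induction, rose at every step from 12.6 to 39.6 CPM (slope 1.52 ± 0.23, edgeR, adjusted p = 1.95e-04). RELA, which encodes the p65 subunit, rose from 56.5 to 132 CPM (slope 1.25 ± 0.15, edgeR, adjusted p = 3.06e-05), and IL6R from 29.0 to 55.8 CPM. CEBPD passed with a slope of 0.48 ± 0.16 (edgeR, adjusted p = 0.0256), but not under library totals or without the 100:0, 75:25 or 25:75 library. IL1RAP and IL1R1, the 2 chains of the interleukin 1 receptor, were the genes that fell. IL1RAP went from 25.4 to 2.26 CPM (slope -2.35 ± 0.45, edgeR, adjusted p = 0.00104), and IL1R1 lost its call without the 0:100 library. BCL3 and CEBPB had slopes of 0.17 ± 0.13 and -0.31 ± 0.14 (edgeR, adjusted p = 0.297 and 0.0871). CEBPB passed as falling under library totals and where 10 reads in every library were required.

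Transcription factors of secretory epithelium moved in both directions. Of 11 tested from 12, 6 rose and 3 fell, with a median slope of 1.502. Where 10 reads in every library were required, 7 could be tested, 3 rose and 2 fell, with a median of 0.04. ELF3, an epithelial ETS factor induced by NF-kappaB, had 149, 763, 1096, 1230 and 1541 reads. It rose at every step from 44.5 to 581 CPM, 13.05-fold between the pure libraries (11.03 to 15.6), with a slope of 3.21 ± 0.36 (edgeR quasi-likelihood test, adjusted p = 2.09e-05). SPDEF, an ETS factor of goblet cells, had 0, 37, 51, 70 and 85 reads along the series, and the last exceeded the 3-read limit of the first by 35.8-fold, with a ratio down to 28.5-fold allowed by counting error. FOXA1 had 3 and 326 reads at the ends of the series, a ratio of 137 (46.5 to 668), with 115, 105 and 120 between them. NKX2-1, the lung lineage factor, had a slope of 1.502 ± 0.21 (edgeR, adjusted p = 9.43e-05). CREB3L1 went the other way, with 247, 227, 146, 47 and 1 reads (slope -3.51 ± 0.53, edgeR, adjusted p = 1.88e-04). HIF1A fell from 361 to 187 CPM. FOXA2, named after its values were seen, also fell, from 44.8 to 11.3 CPM (slope -1.86 ± 0.28, edgeR, adjusted p = 1.56e-04). ELF5, another ETS factor of the list, had 0 reads in every library. EHF, a further ETS factor that rose, named after its values were seen, had at most 33 reads in a library and lost its call in 3 of the fits that left out 1 library.

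**Figure D4:**
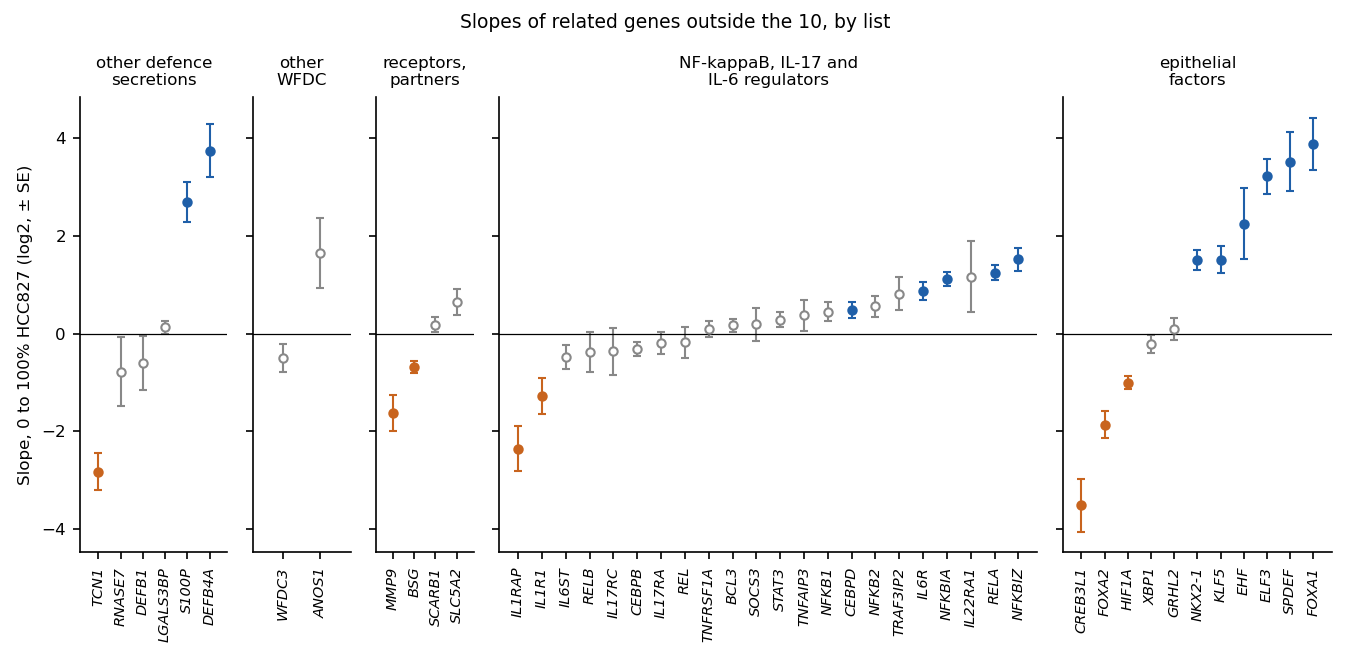
Fitted slope (vertical axis, log2 from 0 to 100% HCC827, with SE) of the tested genes in 5 lists, sorted within each list. The slope is that of a straight line over all libraries, not the log2 ratio of the pure libraries. Blue points rose and orange points fell with an adjusted p-value under 0.05 (edgeR), and open grey points did not pass. FOXA1, SPDEF and ELF3 reach 3.21 to 3.88, while 15 of the 22 regulators of NF-kappaB, IL-17 and IL-6 are open.

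Genes around the 10 were compared within 100000 bases on each side, where 21 other genes could be tested. Of these, 10 rose, 3 fell and 8 did not pass. The rising ones gathered around LCN2, where 7 of 7 rose. They were BBLN, CIZ1, PTGES2, NAIF1, SLC25A25, SLC25A25-AS1 and DNM1, with slopes from 0.92 to 1.97. BBLN went from 365 to 1064 reads (slope 1.70 ± 0.16, edgeR, adjusted p = 7.87e-06) and CIZ1 from 112 to 350 (slope 1.80 ± 0.19, edgeR, adjusted p = 1.51e-05). Several neighbours overlap on opposite strands, namely CIZ1 with BBLN and with DNM1, SLC25A25 with its antisense gene and with NAIF1, IL24 with FCMR, and PFKFB2 with YOD1, and whether counting used the strand is not given in the sources used here. Of the 7, 4 passed without the 100:0 library, 5 without the 0:100 library, 5 under DESeq2's Wald test and 6 under library totals. Next to PDZK1IP1, STIL rose, from 25 reads to 54. Near PIGR, IL24, a cytokine gene of the IL-10 family, fell from 20 reads to 1, and C1orf116 rose from 68 to 208 reads. Around WFDC2, DBNDD2 rose from 17 to 54 reads, while SYS1 and PIGT did not pass. SLC25A25-AS1, DBNDD2 and IL24 passed the 4-fold rule, and the other neighbours are named after their values were seen. STK4 near PI3 and GTF2H1 near SAA1 and SAA2 were the other genes that fell.

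**Figure D5:**
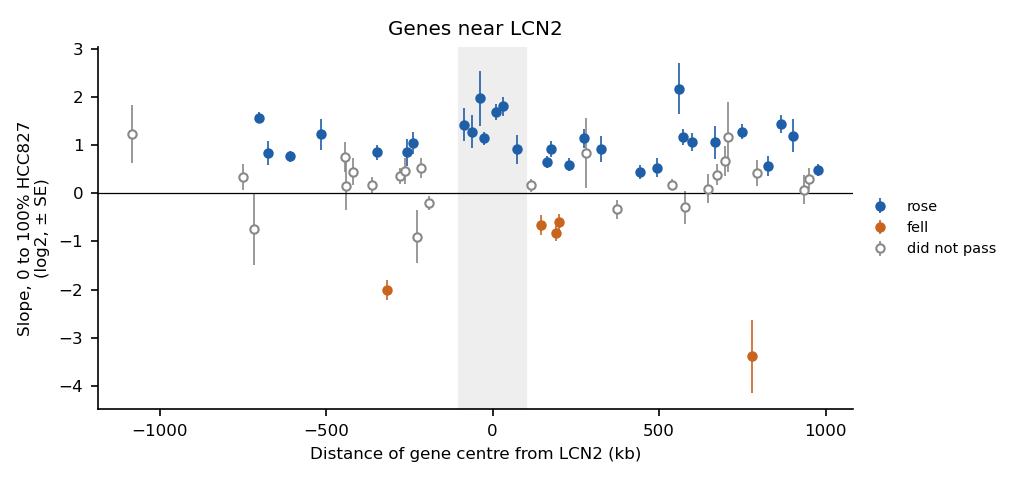
Fitted slope (vertical axis, log2 from 0 to 100% HCC827, with SE) of tested genes near LCN2 against the distance of the gene's centre from that of LCN2 in kb. The slope is that of a straight line over all libraries, not the log2 ratio of the pure libraries. Blue points rose, orange points fell and open grey points did not pass (edgeR), and the shaded band spans 100 kb on each side. The 7 tested neighbours within 100000 bases of LCN2 are all blue, at slopes of 0.92 to 1.97.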

How the data were processed

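Tables of 5 libraries, 1 per mixing ratio, were used. The authors deposited an estimated count of reads per transcript, unscaled, beside a transcript length. Per the submitters' processing notes, minimap2 2.24, Salmon 1.9.0 and GRCh38 were used, and the annotation release is not given in the sources used here. In all, 2 values that were not whole were rounded, and 161 identifiers listed again were summed. Human identifiers were paired with GENCODE v44 genes: 224076 of 227751 matched, holding 98.6% of human reads, and 94.3% of those matched had the same length in that release. Totals per library were 2932250, 4058751, 3879301, 3076856 and 3092629 reads, and no molecular identifiers were given. CPM were scaled by TMM over reads paired with genes.

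Slopes on the HCC827 mass fraction were tested with edgeR 4.0.16 (R 4.3.3, quasi-likelihood) over genes with at least 10 reads in at least 2 libraries, adjusted by Benjamini-Hochberg at 0.05. Isoform usage used diffSpliceDGE with Simes p-values. On simulated data the slope test recovered 113 of 191 changed genes, with 2 false calls, and the usage test 60 of 200, with 1 false call. A gene that did not pass is therefore not shown to be unchanged. Alternatives were DESeq2 1.42.0, limma-voom (limma 3.58.1), other scalings and filters, and leaving out each library. Ratios set counts under 3 to 3, except where 1 to 3 reads are given with an interval, and intervals are conditional binomial at 95%. The members and lists were chosen with earlier results of these data known. Named are all members, up to 3 transcripts each, the 3 genes with most reads per list and up to 3 per direction at least 4-fold apart, and others where stated.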

Additional observations from a re-analysis of the deposited data

How the results depend on the processing

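The ratio of the pure libraries was followed over 3 alternatives for the 8 members that have one, and these 8 kept their direction in each. PIGR had a log2 ratio of 3.56, 3.14 under library totals and 1.82 with a floor of 10 reads, and SAA2 had 3.21 and, with that floor, 1.47. With that floor 746 genes passed the 4-fold rule in place of 1477 (397 higher and 349 lower in HCC827), since it shrinks each ratio it bounds, and library totals gave 443 higher and 1275 lower. Median positions of the members were 25.9%, 47.6% and 70.3% under TMM and 31.7%, 55.1% and 75.2% under library totals. At 50:50 the median thus moved from below the RNA mass share to above it. The trend test called 6172 genes, and 4068 to 5859 when 1 library was left out, with the lowest count without the 0:100 library. All but that count stayed within 1.5 times, DESeq2's Wald test (4813 genes) included. Isoform usage gave 30 genes, 66 by the gene-level F test and 4 to 20 without 1 library, with the lowest count without the 100:0 library. It moved by more than 1.5 times without the 100:0, 75:25, 25:75 or 0:100 library. Why these counts moved was not tested beyond the smaller number of libraries. No paired analysis was possible because each ratio had 1 library. PI3, S100A8, SAA2 and PIGR are limited by depth, with at most 32 reads in any library.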

Other observations

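Because the 7 tested genes within 100000 bases of LCN2 all rose, wider windows were counted after that was seen. Within 1000000 bases on each side 59 other genes were tested, of which 30 (50.9%) rose and 5 fell, with a median slope of 0.65. Within 5000000 bases 46 of 115 (40.0%) rose and 15 fell, with a median of 0.39. Over all of chromosome 9, 154 of 541 (28.5%) rose and 73 fell, with a median of 0.16, beside 23.5% rising and a median of -0.035 over all genes. The share of rising genes was thus higher in the narrower windows. Each wider window holds the genes of the narrower ones, the 7 that prompted the count included. The shares are therefore not independent, and genes outside the inner windows were not counted apart.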
